A study of Mus musculus with 15 samples.

Results

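The regulators of G-protein signaling (RGS) were followed across the mouse Lewis lung carcinoma lines, with *Rgs16* at the center. The members are the rows of the deposited table with the symbols *Rgs2*, *Rgs3*, *Rgs4*, *Rgs5*, *Rgs10*, *Rgs12*, *Rgs14*, *Rgs16*, *Rgs17* and *Rgs19*, which makes 10 of 35880 gene symbols. *Rgs16* was chosen by its low CPM in the *KEAP1* KO clones in these same samples, so the comparisons of these clones with the parental line are a description for the members. Which members pass the call rule in them is listed without p-values, and nothing is concluded from it. The samples are bulk RNA of 5 lines of LL2/Luc2, a mouse lung cancer line, grown as cultured cells without any other treatment, with 3 biologic replicates per line and 15 samples in all. LL2 WT is the parental line. *KEAP1* KO #1, #2 and #3 are separate clones in which CRISPR was used to disrupt *Keap1*, and *NRF2* KO is a single clone in which CRISPR was used to disrupt the gene of NRF2. A clone can differ from its parental line for reasons other than the disrupted gene, and for *NRF2* KO the clone and the knockout cannot be told apart.

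RGS proteins switch off signaling by heterotrimeric G proteins. A receptor loads the Gα subunit with GTP, Gα and Gβγ then act on their effectors, and the RGS domain speeds up the hydrolysis of GTP that ends the signal. The R4 subfamily (*Rgs2*, *Rgs3*, *Rgs4*, *Rgs5* and *Rgs16* here) consists mostly of small proteins that act on Gαi and Gαq, the R12 subfamily (*Rgs10*, *Rgs12* and *Rgs14*) holds large scaffolds next to the small *Rgs10*, and the RZ subfamily (*Rgs17* and *Rgs19*) is known for its cysteine string. KEAP1 marks the transcription factor NRF2 for degradation, so that loss of KEAP1 raises the output of NRF2.

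The authors deposited values named CPM, by that name read counts scaled to a common total, for each gene in each sample. The values sum to 998941 to 999306 CPM over the named genes, 17270 to 19750 genes per sample are above 0, and the number of reads per sample is unknown. A floor of 0.1 CPM, about 3 reads at the average sequencing depth of the study, is used for low values. The lowest values above 0 differed by gene, such as 0.00745 CPM for the receptor *S1pr3* and 0.0434 CPM for the Gγ subunit *Gng11*. Whether the values were divided by gene length is not known, and the floor in reads can differ by gene. Levels are therefore compared between lines and not between genes. *Keap1* ranged from 21.98 to 24.0 CPM in LL2 WT and from 21.6 to 24.8 CPM in *NRF2* KO. Its ranges in the *KEAP1* KO clones were 10.8 to 12.5 CPM in #1, 4.28 to 7.29 CPM in #2 and 3.78 to 6.83 CPM in #3. *Nfe2l2*, the gene of NRF2, ranged from 102 to 146 CPM in *NRF2* KO and from 170 to 208 CPM in LL2 WT. It was also below LL2 WT in the *KEAP1* KO clones, at 87.0 to 103 CPM in #1, 122 to 124 CPM in #2 and 111 to 123 CPM in #3, so its level does not set *NRF2* KO apart. The NRF2 target *Nqo1* ranged from 8.55 to 11.0 CPM in *NRF2* KO, from 26.1 to 36.5 CPM in LL2 WT and from 253 to 545 CPM over the clones. Of 7 epithelial markers, *Epcam*, *Cdh1* and *Nkx2-1* lay at or under the floor in all 15 samples, while the keratins *Krt8* (65.1 to 186 CPM) and *Krt18* (234 to 575 CPM) were present in all of them, and the 7 markers summed to between 299 and 667 CPM. The summed level of 6 mesenchymal markers ranged from 2719 CPM in a *KEAP1* KO #1 sample to 7593 CPM in an *NRF2* KO sample, and 5 leukocyte markers summed to at most 0.286 CPM. The part of these markers in the results was not tested.

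*Rgs16* has 1 annotated transcript on the plus strand of chromosome 1, from 153740349 to 153745468 of GRCm38. The annotation places *Rgs3* on chromosome 4 (62559847 to 62704001), *Rgs12* on chromosome 5 (34949445 to 35039644) and *Rgs17* on chromosome 10 (5825663 to 5922400, minus strand). These are the members with a sequence entry that are called in at least 1 *KEAP1* KO clone below, and the 250 bases upstream of the first start of each are printed here from RefSeq (GRCm38.p6), 5′ to 3′ on the strand of the gene. Capitals mark matches to the motifs named after the sequences.
*Rgs16*, chr1:153740103-153740352, plus strand: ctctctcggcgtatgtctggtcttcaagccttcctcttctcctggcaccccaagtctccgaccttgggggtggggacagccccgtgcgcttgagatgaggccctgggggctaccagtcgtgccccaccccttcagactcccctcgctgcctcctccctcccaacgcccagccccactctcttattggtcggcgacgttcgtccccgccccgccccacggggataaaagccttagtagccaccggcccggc
*Rgs12*, chr5:34949198-34949447, plus strand: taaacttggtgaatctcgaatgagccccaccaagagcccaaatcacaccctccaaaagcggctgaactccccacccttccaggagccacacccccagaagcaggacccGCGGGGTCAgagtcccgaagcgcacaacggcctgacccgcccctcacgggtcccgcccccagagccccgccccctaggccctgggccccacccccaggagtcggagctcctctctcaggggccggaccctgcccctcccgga
*Rgs17*, chr10:5922401-5922650, minus strand: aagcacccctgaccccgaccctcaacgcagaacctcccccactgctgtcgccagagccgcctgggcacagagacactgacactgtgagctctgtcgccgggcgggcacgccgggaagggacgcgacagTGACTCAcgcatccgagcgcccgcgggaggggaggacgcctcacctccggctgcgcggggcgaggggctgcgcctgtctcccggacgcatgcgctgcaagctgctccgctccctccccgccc
*Rgs3*, chr4:62559597-62559846, plus strand: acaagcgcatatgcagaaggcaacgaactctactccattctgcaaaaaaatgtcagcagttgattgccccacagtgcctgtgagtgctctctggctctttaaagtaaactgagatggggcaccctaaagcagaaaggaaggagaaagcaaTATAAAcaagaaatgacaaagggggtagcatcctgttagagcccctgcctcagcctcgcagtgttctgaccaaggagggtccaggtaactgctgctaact

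The motifs searched on both strands were the core bound by NRF2 (TGACNNNGC), the AP-1 site (TGANTCA), the cAMP response element (TGACGTCA), the NF-κB site and the TATA box (TATAAA). Over 32851 mouse promoters of the same length, they are found in 10.16%, 6.75%, 1.55%, 3.86% and 12.37%. The window of *Rgs16* holds none of them, has 66.4% G and C and holds 17 CpG pairs, against medians of 52.4% and 6 over all promoters. *Rgs12* has the NRF2 core on the minus strand, 142 bases upstream of its first start, and *Rgs17* has the AP-1 site 122 bases upstream. A TATA box stands 100 bases upstream of the first start of *Rgs3*. Sequences were matched for 9 of the 10 members, all but *Rgs14*. A match describes letters in a window and not a site of binding.

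*Rgs16*, an R4 regulator that acts on Gαi and Gαq, gave 5.32, 1.74 and 16.4 CPM in LL2 WT. *KEAP1* KO #1 had 0.0452, 0.0600 and 0.275 CPM. The next clone, *KEAP1* KO #2, had 0, 0 and 0.0645 CPM, and *KEAP1* KO #3 had 0, 0.0769 and 0.0282 CPM. Every sample of the 3 clones therefore lay below every LL2 WT sample, and 8 of the 9 lay under the floor. Relative to the mean of LL2 WT (7.84 ± 7.67 CPM, SD, n = 3) and with samples under the floor set to it, *Rgs16* was at least 49.5-fold lower in *KEAP1* KO #1 and at least 78.4-fold lower in each of the other two clones. The bound for *KEAP1* KO #1 was 78.4-fold without its replicate 3. Without LL2 WT replicate 3 the bounds were 22.3-fold and 35.3-fold. On the log2(CPM + 0.1) scale, which understates the change of such low values, the differences were −4.74, −5.54 and −5.38 (SE 0.68 each) in this order.

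**Figure D1:**
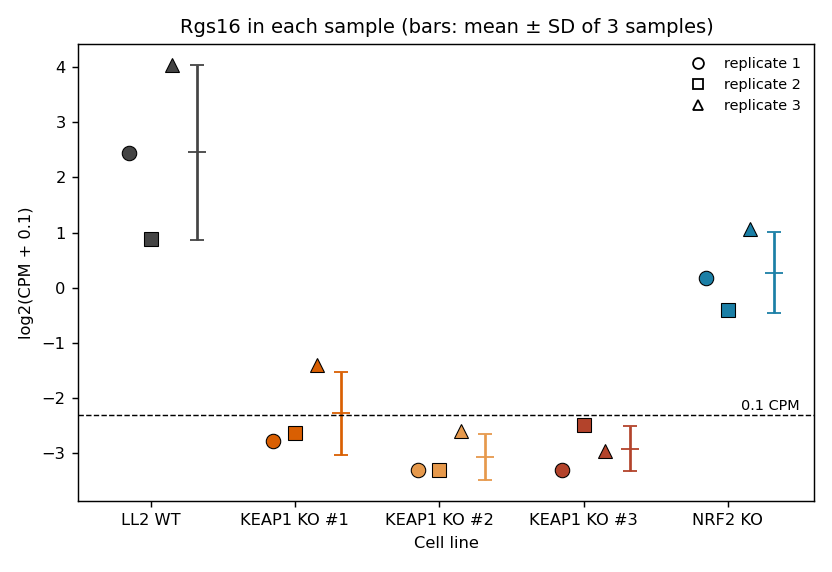
*Rgs16* in each of the 15 samples as log2(CPM + 0.1), by cell line, with the mean ± SD of each line beside its 3 samples and the dashed line at 0.1 CPM. The LL2 WT samples (1.74 to 16.4 CPM) sit above all 9 *KEAP1* KO samples (0 to 0.275 CPM), and the *NRF2* KO samples (0.649 to 1.99 CPM) lie between them with 1 sample above the lowest LL2 WT sample.

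In *NRF2* KO, *Rgs16* was measured at 1.03, 0.649 and 1.99 CPM. The highest of these exceeds the lowest LL2 WT sample, so the lines overlap, while all 3 lie above every *KEAP1* KO sample. The mean of LL2 WT was 6.42 times that of *NRF2* KO, and 2.89 times without LL2 WT replicate 3. The log2 difference of −2.18 (SE 0.68, 95% interval −3.65 to −0.71) had an unadjusted p of 0.00688 and an adjusted p of 0.224 in limma, and is not called. This SE rests on a spread pooled over all lines, to which the clones, mostly under the floor, also contribute. The LL2 WT samples alone ran from 0.88 to 4.05 on the log2 scale, so the SE can be too small and the interval too narrow for this comparison. Between samples with the same replicate number, LL2 WT was 5.18, 2.68 and 8.28 times *NRF2* KO. *NRF2* KO and the *KEAP1* KO clones are compared with the same LL2 WT samples. Without LL2 WT replicate 2 the difference was −2.97 and is called (adjusted p = 0.0451), with replicate 3 as a batch it stayed at −2.18 and is called (adjusted p = 0.0415), and over 16 other settings the adjusted p ran from 0.0415 to 0.740.

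*Rgs16* also varied most among the members within a line. Its SD within lines on the log2 scale was 0.892, larger than that of 96.7% of 11676 genes with a mean of at least 1 CPM, whose median was 0.225. Replicate 3 was the highest sample of every line except *KEAP1* KO #3. The within-line SD of *Rgs12* was 0.478 and that of *Rgs14* 0.417, and those of *Rgs10* and *Rgs19* were both 0.155.

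*Rgs3*, another R4 member and one that exists in long and short forms, ran opposite to *Rgs16*. LL2 WT had 15.8, 11.8 and 16.4 CPM. *KEAP1* KO #1 had 36.6, 18.4 and 38.0 CPM, *KEAP1* KO #2 had 28.8, 26.5 and 31.2 CPM, and *KEAP1* KO #3 had 30.3, 26.6 and 28.5 CPM. All 9 *KEAP1* KO samples lay above all LL2 WT samples. The log2 differences were 1.02, 0.98 and 0.97 (SE 0.25 each), and the first alone passes the limit of 1 that a call requires. Without *KEAP1* KO #1 replicate 1 (0.86), *KEAP1* KO #1 replicate 3 (0.84) or LL2 WT replicate 2 (0.87) it is not called either. In *KEAP1* KO #2 it is called without *KEAP1* KO #2 replicate 2 (1.04), LL2 WT replicate 1 (1.05) or LL2 WT replicate 3 (1.07), and in *KEAP1* KO #3 without *KEAP1* KO #3 replicate 2 (1.01), LL2 WT replicate 1 (1.03) or LL2 WT replicate 3 (1.05). *NRF2* KO, at 14.1, 11.5 and 19.2 CPM, overlapped LL2 WT, with a log2 difference of 0.0069 (95% interval −0.54 to 0.55, adjusted p = 0.997 in limma).

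The other R4 members were near or under the floor. *Rgs2*, a regulator with a preference for Gαq, reached at most 0.121 CPM and was at 0 in 7 of 15 samples. *Rgs5*, known as a marker of pericytes, reached at most 0.0981 CPM and so stayed under the floor throughout. *Rgs4* reached 0.545 CPM in an LL2 WT sample, with 6 of 15 samples at or under the floor and 4 of them at 0. These 3 genes did not reach the sum of 3 CPM over all samples that the test requires. Fitted without this filter, none of them is called in any comparison. *Rgs2* in *KEAP1* KO #1 (0.0114, 0.121 and 0.101 CPM) lay above its value of 0 in every *KEAP1* KO #2 sample, near or under the floor.

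In the R12 subfamily, *Rgs12* and *Rgs14* were lower in the *KEAP1* KO clones. *Rgs12*, a large scaffold with several signaling domains, had 7.80, 14.3 and 9.02 CPM in LL2 WT. The first clone gave 6.38, 3.24 and 6.76 CPM, the second 3.81, 3.93 and 6.60 CPM, and the third 3.77, 4.16 and 6.15 CPM. None of these 9 samples reached the lowest LL2 WT sample. The log2 differences were −0.94, −1.10 and −1.11 (SE 0.36 each), of which the last 2 are called. The call in *KEAP1* KO #2 is lost without *KEAP1* KO #2 replicate 1 (−0.96) or replicate 2 (−0.98), or LL2 WT replicate 2 (−0.84) or replicate 3 (−1.18). The call in *KEAP1* KO #3 is lost without *KEAP1* KO #3 replicate 1 (−0.97) or replicate 2 (−1.04), or LL2 WT replicate 2 (−0.86) or replicate 3 (−1.19).

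In *NRF2* KO, *Rgs12* had 15.7, 26.1 and 12.8 CPM and overlapped LL2 WT, since 1 of its samples lies below the highest LL2 WT sample. Its log2 difference was 0.79 (SE 0.36, 95% interval 0.017 to 1.55) with an unadjusted p of 0.0459 and an adjusted p of 0.437 in limma. The value is above 0 here and below 0 in each *KEAP1* KO clone, and the difference between these comparisons was not tested.

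*Rgs14*, a scaffold that also binds Ras and inactive Gαi, had 1.83, 1.71 and 1.13 CPM in LL2 WT. *KEAP1* KO #1 gave 0.896, 0.749 and 0.910 CPM. The values for #2 were 0.436, 0.642 and 0.981 CPM, and those for #3 were 0.377, 0.424 and 0.926 CPM. Again every *KEAP1* KO sample lay below every LL2 WT sample, with log2 differences of −0.78, −1.11 and −1.36 (SE 0.35 each), of which the last 2 are called. The call in *KEAP1* KO #2 is lost without *KEAP1* KO #2 replicate 1 (−0.86) or replicate 2 (−1.10), or LL2 WT replicate 1 (−0.99) or replicate 2 (−1.03). The call in *KEAP1* KO #3 is lost when 0.5 CPM (−0.96) or 1 CPM (−0.71) is added before the logarithm, or with only the lines compared in the fit (−1.36). *NRF2* KO had 1.86, 1.26 and 1.98 CPM, a log2 difference of 0.12 (95% interval −0.63 to 0.87, adjusted p = 0.933 in limma).

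*Rgs10*, a small regulator of Gαi known from microglia and macrophages, differed in pattern. LL2 WT had 19.9, 17.6 and 14.9 CPM, and *KEAP1* KO #1 overlapped it at 15.9, 16.5 and 19.2 CPM. *KEAP1* KO #2 had 23.2, 21.9 and 21.7 CPM, and *KEAP1* KO #3 had 28.6, 30.1 and 24.2 CPM, all above LL2 WT. The log2 differences of −0.02, 0.36 and 0.66 (SE 0.13 each) are not called. *NRF2* KO, at 18.9, 23.4 and 19.7 CPM, had a log2 difference of 0.24 (95% interval −0.04 to 0.53, adjusted p = 0.542 in limma).

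In the RZ subfamily, *Rgs17* was low in 1 clone and *Rgs19* was at a similar level in all lines. *Rgs17*, which acts on Gαi, Gαo and Gαz, had 7.20, 7.23 and 11.6 CPM in LL2 WT. *KEAP1* KO #1 gave 3.00, 3.95 and 4.03 CPM, where the log2 difference of −1.20 (SE 0.21) is called. It is not called without LL2 WT replicate 3 (−0.97). *KEAP1* KO #2, at 6.39, 5.74 and 7.27 CPM, and *KEAP1* KO #3, at 5.65, 6.08 and 7.96 CPM, overlapped LL2 WT, with log2 differences of −0.39 and −0.38. *NRF2* KO had 5.19, 6.14 and 6.52 CPM, all below LL2 WT, with a log2 difference of −0.51 (95% interval −0.96 to −0.05), an unadjusted p of 0.0315 and an adjusted p of 0.391 in limma.

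*Rgs19*, also called GAIP, had 55.3, 56.4 and 40.5 CPM in LL2 WT, and the other 12 samples lay between 39.5 and 50.3 CPM. Every line overlapped LL2 WT. The log2 differences were −0.12, −0.32 and −0.24 for the 3 *KEAP1* KO clones, and −0.12 for *NRF2* KO (95% interval −0.39 to 0.16, adjusted p = 0.797 in limma), and none is called.

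**Figure D2:**
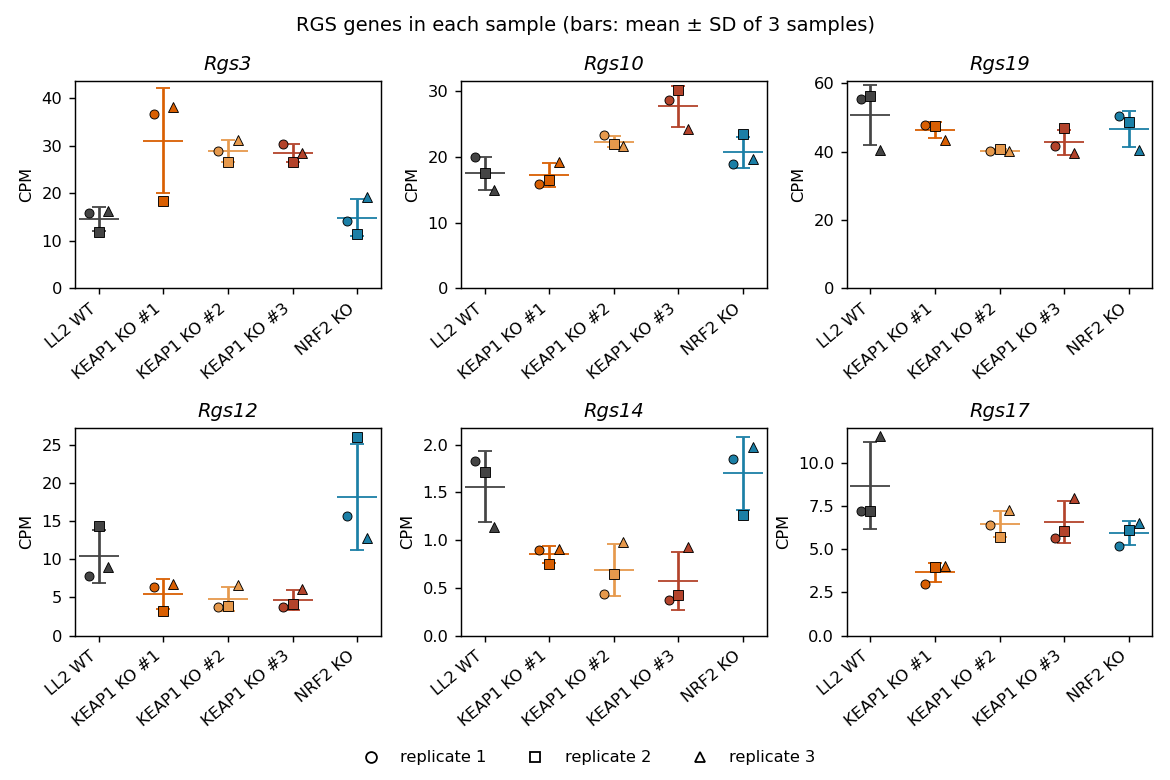
CPM of 6 RGS genes in each of the 15 samples by cell line, with the mean ± SD of the 3 samples as bars and the replicate number as the marker, and each panel on its own linear axis from 0. *Rgs3* lies above LL2 WT in all 9 *KEAP1* KO samples, *Rgs12* and *Rgs14* lie below it in all 9, and *Rgs17* is lowest in *KEAP1* KO #1.

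A gene is called where its adjusted p is under 0.05 and its log2 difference is over 1 in size. On this rule, 3 of the 7 tested members are called in each *KEAP1* KO clone. In *KEAP1* KO #1 these were *Rgs3*, higher, and *Rgs16* and *Rgs17*, lower. In *KEAP1* KO #2 and #3 they were *Rgs12*, *Rgs14* and *Rgs16*, all lower. Over all 14652 tested genes, 8.54%, 13.7% and 13.4% are called in these comparisons, and nothing is read from the members' share, since the same contrasts were used in choosing them. The samples did not overlap with LL2 WT for 5 of the 7 in each clone, against 37%, 42% and 40% of all tested genes, and for 1 of the 7 in *NRF2* KO, against 13.2%. Lower in all 3 clones at once were 2.63% of the tested genes, and *Rgs16* was the only member among them. The median log2 difference of the 7 members was −0.78, −0.39 and −0.38, against 0.11, 0.03 and 0.02 for all tested genes. In *NRF2* KO, 0 of the 7 members are called in limma against 0.464% of all genes, and 3 (*Rgs12*, *Rgs16* and *Rgs17*) had an unadjusted p under 0.05, against 11.2% of all genes. This contrast shares the LL2 WT samples with those used in choosing the members, so nothing is read from these shares either.

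**Figure D3:**
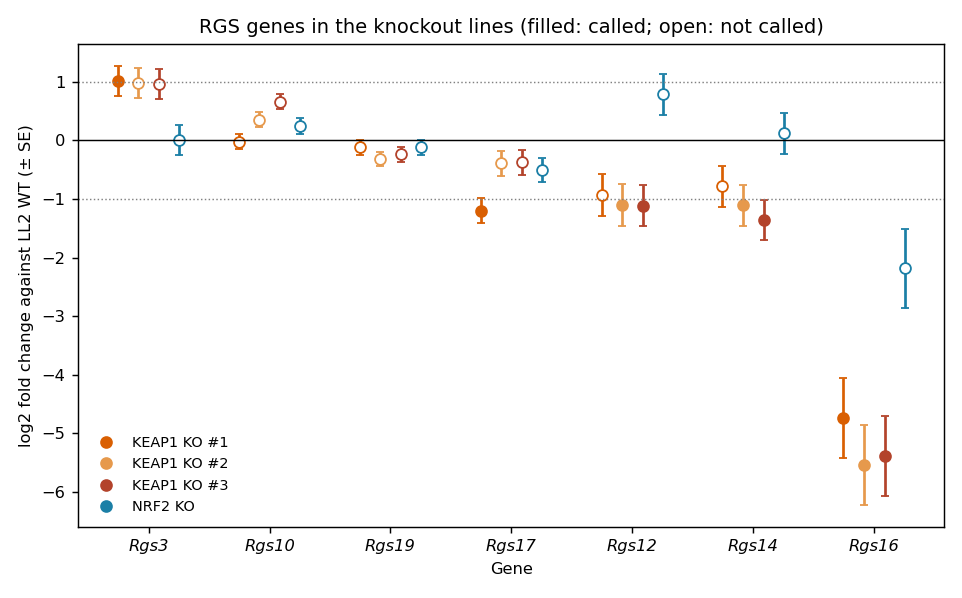
Log2 fold change of the 7 tested RGS genes against LL2 WT (± SE from limma) in the 4 knockout lines, filled where called and open where not, with dotted lines at −1 and 1. *Rgs16* lies between −4.74 and −5.54 for the *KEAP1* KO clones and at −2.18 for *NRF2* KO, and the other members lie between −1.36 and 1.02.

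The clones were then compared with each other, in contrasts of limma whose differences use no LL2 WT sample. Their SE and p still rest on the spread pooled over all lines, LL2 WT included, unless only the lines compared were fitted. None of the 7 members is called between clones, against 4.58% of all genes for *KEAP1* KO #1 against #2, 4.63% for #1 against #3 and 0.485% for #3 against #2. Without the limit on size, 1 member was lower at an adjusted p under 0.05 for #1 against #2, 2 for #1 against #3 and 0 for #3 against #2, against 3.94%, 4.55% and 0.389% of all genes. The samples of the pair of clones did not overlap for 3, 2 and 1 of the 7 members, against 32.9%, 32.8% and 17% of all genes. *Rgs17* was lower in *KEAP1* KO #1 than in #2 by a log2 difference of −0.81 (SE 0.21, adjusted p = 0.0254) and than in #3 by −0.82 (SE 0.21, adjusted p = 0.0221), and its samples did not overlap with either. The former adjusted p is over 0.05 without *KEAP1* KO #1 replicate 1 (difference −0.68) or any of the 3 *KEAP1* KO #2 replicates (−0.82, −0.89 and −0.72), and the latter without *KEAP1* KO #1 replicate 1 (−0.69) or *KEAP1* KO #3 replicate 2 (−0.87) or replicate 3 (−0.68), or with only the lines compared (−0.82). *Rgs10* was lower in *KEAP1* KO #1 than in #3 by −0.68 (SE 0.13, adjusted p = 0.00529), with a range of the adjusted p from 0.00156 to 0.0305 over 16 other settings, and the samples did not overlap. *Rgs10* in #1 against #2 (−0.38, adjusted p = 0.0890) and in #3 against #2 (0.30, adjusted p = 0.552) also had no overlap between samples but missed the threshold. For *Rgs16* the differences between clones were 0.80, 0.65 and 0.15 on the log2 scale, with 95% intervals of −0.67 to 2.27, −0.82 to 2.12 and −1.32 to 1.62, at values where 8 of 9 samples lie under the floor.

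Across the 15 samples, *Rgs12*, *Rgs14* and *Rgs16* varied together and against *Rgs3*, and *Rgs17* did so less. Pearson's r on the log2 scale was 0.80 for *Rgs12* with *Rgs14*, 0.74 for *Rgs14* with *Rgs16* and 0.63 for *Rgs12* with *Rgs16*. It was −0.70 for *Rgs3* with *Rgs12* and −0.68 for *Rgs3* with *Rgs16*. *Rgs17* had r = 0.23 with *Rgs12*, 0.20 with *Rgs14*, 0.53 with *Rgs16* and −0.38 with *Rgs3*. For *Rgs19* r was 0.41 with *Rgs12*, 0.47 with *Rgs14*, 0.37 with *Rgs16* and −0.60 with *Rgs3*. *Rgs10* ran against *Rgs12* (−0.26), *Rgs14* (−0.56) and *Rgs16* (−0.52), and had r = 0.28 with *Rgs3*. These values describe 15 samples that share 5 lines, and carry no test.

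Of 11675 genes with a mean of at least 1 CPM, those with the pattern most like *Rgs16* over the 15 samples were *Ighm* (r = 0.974), *Tfap2c* (0.974), *Gypc* (0.974), *Asph* (0.969) and *Ifngr1* (0.968). The most opposite were *Gm6013* (r = −0.988), *Prps2* (−0.983), *Dtx2* (−0.976), *Specc1* (−0.974) and *Smarcc1* (−0.973). These genes were picked by their r with *Rgs16* in the same 15 samples. A similar or opposite order of the lines therefore follows from the choice, and nothing is concluded from it. Most clone samples of *Rgs16* also lie under the floor, so r rests largely on the split between the clones and LL2 WT by which *Rgs16* was chosen. *Tfap2c*, which encodes the transcription factor AP-2γ, had a mean of 7.32 CPM in LL2 WT. Its mean was 2.15 CPM for *NRF2* KO, and the clones had means of 0.215, 0.0354 and 0.0469 CPM. *Ifngr1*, a chain of the interferon-γ receptor, had a mean of 31.2 CPM in LL2 WT, a mean of 23.4 CPM in *NRF2* KO and means of 15.2, 11.3 and 12.4 CPM in the clones. For *Gm6013* the means were 0.173 CPM in LL2 WT, 0.632 CPM in *NRF2* KO and 4.46, 7.39 and 5.61 CPM in the clones.

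Among the other 11 genes of the RGS family, 2 passed the filter, and neither is called in any line. *Rgs11*, an R7 member that works with Gβ5, ranged from 0.734 to 17.2 CPM and was highest in replicate 3 of every line. With replicate 3 as a batch, *Rgs11* is called lower in the 3 *KEAP1* KO clones (log2 differences −1.70, −2.02 and −1.59). Each clone overlapped LL2 WT. Replicate 3 of the clones, at 5.68, 5.88 and 11.9 CPM, was above the lowest LL2 WT sample at 3.04 CPM. *Rgs20*, the third RZ member, ranged from 3.39 to 10.9 CPM, with its highest mean (9.59 ± 1.42 CPM, SD, n = 3) in *NRF2* KO, where the log2 difference was 0.60 (adjusted p = 0.409 in limma).

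The partners of the RGS proteins were taken by role. Those named for the clones were picked because they are called in all 3 of them, so their values are a description without p-values. Of 11 tested Gα subunits, only *Gnao1*, the gene of Gαo and thus of an RGS substrate, is called. Over all tested genes, 8.54%, 13.7% and 13.4% are called in the clones. *Gnao1* had 5.17, 3.79 and 7.97 CPM in LL2 WT. Its means were 1.81 ± 0.122, 0.495 ± 0.207 and 0.278 ± 0.199 CPM (SD, n = 3) in the clones, with log2 differences of −1.52, −3.27 and −3.98. The median log2 difference of the Gα subunits was −0.03, −0.15 and −0.12 in the clones and 0.13 in *NRF2* KO. *Gnao1* in *NRF2* KO, at 8.36, 6.13 and 14.7 CPM, is not called.

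Of 13 tested Gβ and Gγ subunits, 2, 3 and 4 are called lower in *KEAP1* KO #1, #2 and #3 and 0 higher, where 3.99%, 7.75% and 7.34% of all tested genes are called lower, with median log2 differences of −0.03, −0.23 and −0.18. *Gng2*, a Gγ subunit, had 67.0, 39.5 and 69.7 CPM in LL2 WT. Its means were 13.9 ± 5.59, 7.58 ± 2.01 and 7.32 ± 1.90 CPM (SD, n = 3) in the clones, with log2 differences of −2.10, −2.92 and −2.98. Of 21 other tested regulators of G proteins, 1, 0 and 1 are called, both lower, against 3.99%, 7.75% and 7.34% of all tested genes called lower. Of 10 tested effectors, 3, 2 and 2 are called lower, against the same 3.99%, 7.75% and 7.34%, and 0 higher, with median log2 differences of −0.47, −0.46 and −0.19. *Adcy7*, an adenylyl cyclase stimulated by Gβγ, is the effector called in every clone. It had 20.8, 17.1 and 18.4 CPM in LL2 WT. Its means were 7.11 ± 2.39, 3.61 ± 0.941 and 3.31 ± 0.774 CPM in the clones, with log2 differences of −1.43, −2.37 and −2.49.

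Of 62 G-protein-coupled receptors in the list, 23 passed the filter, and 3, 3 and 3 of these are called higher and 5, 7 and 6 lower in the clones. Over all tested genes, 4.55%, 5.94% and 6.09% are called higher and 3.99%, 7.75% and 7.34% lower. *Adora2b*, an adenosine receptor, had 10.5, 9.10 and 12.24 CPM in LL2 WT. Its means were 1.56, 1.90 and 1.56 CPM in the clones, with log2 differences of −2.69, −2.43 and −2.71. *F2rl1*, the protease-activated receptor PAR2, had 25.8, 24.4 and 29.1 CPM in LL2 WT and log2 differences of −1.35, −1.80 and −1.61. *Lpar2*, a receptor of lysophosphatidic acid, went the other way, from 5.86, 9.23 and 4.58 CPM in LL2 WT to means of 12.8, 15.6 and 16.2 CPM in the clones, with log2 differences of 1.01, 1.29 and 1.35. In *NRF2* KO 0 genes of these 5 groups are called in limma, against 0.464% of all tested genes. With replicate 3 as a batch 1 is, the endothelin receptor *Ednra* (−1.90, adjusted p = 0.0394 against 0.187 without the batch), named after its values were seen.

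**Figure D4:**
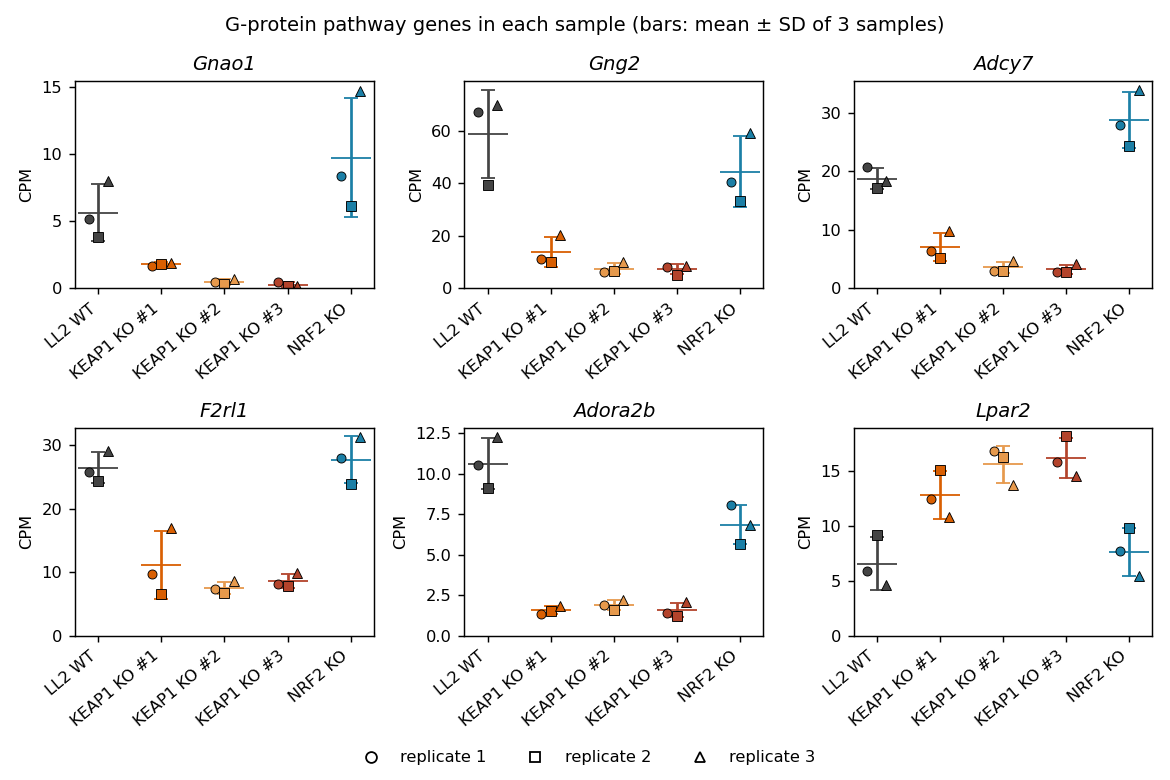
CPM of 6 genes of the G-protein pathway in each of the 15 samples by cell line, with the mean ± SD of 3 samples as bars and each panel on its own linear axis from 0. *Gnao1*, *Gng2*, *Adcy7*, *F2rl1* and *Adora2b* are lower in every *KEAP1* KO sample than in every LL2 WT sample, and *Lpar2* is higher.

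Some reads of the members can come from other annotated genes. Of the stretches of 31 bases in their transcripts, 12.5% are shared with another gene for *Rgs3*, 9.09% for *Rgs16*, 4.76% for *Rgs12*, 3.06% for *Rgs14* and under 0.5% for each of the other 6. The gene that shares most with *Rgs3* (*Gm5763*) is listed at 0 in all samples. Those that share most with *Rgs16* (*Gm28513*), *Rgs12* (*Gm43791*) and *Rgs14* (*Gm45833*) have no CPM values, so their levels could not be checked.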

How the data were processed

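RNA of cultured cells was sequenced by the authors and pseudo-aligned with kallisto v0.48.0 to the GRCm38.p6 transcripts, per their methods, while the build named in the submitters' processing notes is GRCm39. The authors deposited values named CPM, scaled to a common total and summed to genes, and whether they were also divided by gene length is not known. These are estimates that do not step in whole reads, so no count test was used, and a blank entry that takes 0.0214% to 0.0491% of the CPM was excluded.

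The test covered 14652 of 35880 genes, those whose CPM summed to 3 or more, on the log2(CPM + 0.1) scale in limma 3.58.1 (R 4.3.3), with a mean per line, contrasts and empirical Bayes with a trend. P-values were two-sided, with a Benjamini-Hochberg adjustment across all tested genes. Lines were grouped by the labels. The p-values rest on the spread between the 3 samples of a line, pooled over all 5 lines unless only the lines compared were fitted. Folds to the floor of 0.1 CPM and the floor itself cover counting error only.

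The members and gene lists were chosen with earlier results of these data known. The genes named are all members, the 5 genes with the highest and the 5 with the lowest r with *Rgs16*, and, from each list, those with a mean of at least 1 CPM that are called in the same direction in all 3 *KEAP1* KO clones or are called in *NRF2* KO. Alternatives were other pseudocounts, filters and scalings, a replicate block, replicate 3 as a batch, only the lines compared and each replicate left out. Replicates 1 and 2 alone were added after seeing the data. The procedure was tested on simulated data. Coordinates are from GENCODE vM21 (GRCm38), and Python 3.11.15 was used for the rest.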

Additional observations from a re-analysis of the deposited data

Results flagged for a closer look

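A test between clones under the same knockout singled out a pair of members. *Rgs17* was lower in *KEAP1* KO #1 than in *KEAP1* KO #2 (log2 difference −0.81, SE 0.21, adjusted p = 0.0254 in limma) and than in *KEAP1* KO #3 (−0.82, SE 0.21, adjusted p = 0.0221). *Rgs10* was lower in *KEAP1* KO #1 than in *KEAP1* KO #3 (−0.68, SE 0.13, adjusted p = 0.00529). Each is lower in 3 of 3 samples, and none passes the log2 limit of 1. Over all tested genes, 3.94% were lower in #1 than in #2 at an adjusted p under 0.05, and 4.55% than in #3. The adjusted p in limma stayed under 0.05 in 12 of 16 other settings for each *Rgs17* difference. For *Rgs10* it did in all 16.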

How the results depend on the processing

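The number of members called moved from 3 to 1 in *KEAP1* KO #2 with a pseudocount of 1 CPM, no filter, quantile normalization or only the lines compared, and in *KEAP1* KO #3 with a pseudocount of 1 CPM. In *KEAP1* KO #3 it was 2 with a pseudocount of 0.5 CPM or only the lines compared, where *Rgs14* was lost. With no filter or quantile normalization it was also 2 there, and *Rgs12* was lost. In *KEAP1* KO #2 a pseudocount of 0.5 CPM left 2. It moved from 0 to 1 in *NRF2* KO with replicate 3 as a batch. The calls lost are those of *Rgs12* and *Rgs14*, and *Rgs16* is the one gained in *NRF2* KO. With 1 replicate left out, the counts ran from 1 to 3 in *KEAP1* KO #2 and from 0 to 1 in *NRF2* KO. In *KEAP1* KO #3, 1 member is called higher and 3 lower without LL2 WT replicate 1, and 2 lower without LL2 WT replicate 2. The larger pseudocounts act by construction on low values, and the cause of the other moves was not tested. The call of *Rgs3* in *KEAP1* KO #1 is also lost with rescaling by the median ratio (0.90), quantile normalization (0.95), a pseudocount of 1 CPM (0.98), only the lines compared (1.02) or replicates 1 and 2 alone (0.92). With replicates 1 and 2 alone, *Rgs3* is instead called higher in *KEAP1* KO #2 (1.01) and #3 (1.05), and *Rgs14* is called lower in #1 (−1.02). Rescaling by the median ratio moved the median over all genes from 0.11 to −0.0010 for *KEAP1* KO #1, and *Rgs12* is then called there (−1.05).

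Between samples with the same replicate number, the lowest r of the deviations was largest for *KEAP1* KO #3 against #2 (r from 0.126 to 0.546 over 11676 genes). In the other comparisons the lowest r was between −0.0221 and 0.0860, and the highest was between 0.422 and 0.631. For *NRF2* KO against LL2 WT r ran from 0.0715 to 0.631, the highest of any comparison. With the replicate block, 1 member (*Rgs16*) is called in *NRF2* KO, at a log2 difference of −2.18 with an adjusted p of 0.0478 in limma, and the count of called members was the same as without the block in every other comparison. The block also called *Rgs11* lower in the 3 *KEAP1* KO clones, where its samples overlap LL2 WT, and *Ednra* lower in *NRF2* KO (adjusted p = 0.0378 in limma).

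Small differences changed sign. *Rgs3* in *NRF2* KO was −0.051 with the median ratio, −0.020 with quantile normalization and −0.10 with replicates 1 and 2 alone, where *Rgs14* was −0.20. *Rgs3* in *KEAP1* KO #1 was −0.049, −0.021 and −0.090 against #2 in these settings, and −0.040 with the median ratio and −0.13 with replicates 1 and 2 alone against #3. With quantile normalization, *Rgs12* in #1 against #2 was −0.014 and *Rgs17* in #3 against #2 was −0.013. With replicates 1 and 2 alone, #3 against #2 gave 0.038 for *Rgs3*, 0.034 for *Rgs12* and −0.045 for *Rgs17*. With 1 replicate left out, the signs also turned for *Rgs3* (−0.19 to 0.18) and *Rgs14* (−0.080 to 0.31) in *NRF2* KO, for *Rgs3* (−0.15 to 0.38) and *Rgs12* (−0.022 to 0.50) in #1 against #2, for *Rgs3* (−0.13 to 0.39) and *Rgs12* (−0.011 to 0.51) in #1 against #3, and for *Rgs3* (−0.076 to 0.040), *Rgs12* (−0.22 to 0.24), *Rgs14* (−0.59 to 0.010), *Rgs16* (−0.060 to 0.39) and *Rgs17* (−0.13 to 0.11) in #3 against #2.

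Over all genes, *NRF2* KO had 68 calls, 179 with the replicate block and 7 with only the lines compared. With a pseudocount of 1 CPM, the receptors called numbered 4 of 23 for *KEAP1* KO #1 and 6 of 23 for #2, against 5.35% and 8.7% of all tested genes. The depth of each sample is unknown, which limits *Rgs2*, *Rgs4*, *Rgs5* and the clones' *Rgs16* to statements about the floor.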
